A study of Mus musculus with 80 samples.

Results

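Gas5 and 6 genes of the small nucleolar RNA host gene family (Snhg1, Snhg3, Snhg5, Snhg6, Snhg8 and Snhg12) were followed through every preparation of a mouse microglia study. The 7 genes were chosen by name. All 7 were measured in both expression tables, out of 15919 genes in the Sort Comparison and 16000 genes in the Inhibitor Comparison. Host genes of this kind are transcribed for their introns. Splicing releases small nucleolar RNAs (snoRNAs) from the introns. Many but not all of these guide ribose methylation (box C/D class) or pseudouridylation (box H/ACA class) of ribosomal RNA. The transcripts belong to the terminal oligopyrimidine class, like ribosomal protein mRNAs, and the spliced exons hold only short open reading frames. Ribosomes that translate these frames expose the RNA to nonsense-mediated decay (NMD), so in cultured cells Gas5 is known to accumulate when translation is blocked.

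The study asked how much the isolation of microglia from brain alters their RNA. All mice carried the same alleles, Cx3cr1(Jung)-cre/Ert2+ and NuTRAP+, and were given tamoxifen in sunflower seed oil by daily intraperitoneal injection at 100 mg/kg at about 3 months of age. Tamoxifen activates the Cre, which runs from the Cx3cr1 promoter, and the recombined NuTRAP allele then tags ribosomes with GFP. Cx3cr1 is also active in border macrophages, so the tag marks Cx3cr1-expressing cells and not microglia alone. RNA taken before the pulldown is called Input, and RNA bound to ribosomes caught with an anti-GFP antibody is called TRAP. The homogenization buffer held cycloheximide.

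The Sort Comparison holds 48 libraries, an Input and a TRAP library from each preparation of each mouse. Tissue (4 mice) was homogenized directly, and Cell (the same 4 mice) is an enzymatic suspension without sorting. The sorted preparations are autoMACS (4 mice, magnetic beads against CD11b), Tyto (5 mice, cartridge-based sorting), FACSAria (4 mice, cytometer-based sorting) and autoMACS-Tyto (3 mice, the bead sort followed by Tyto). The Inhibitor Comparison holds 32 libraries from Tissue, Dounce (mechanical dissociation at 4 °C without enzymes), Cell (−) Inhibitors and Cell (+) Inhibitors, each from 4 mice. The (+) suspension was prepared with actinomycin D and triptolide, which block transcription, and anisomycin, which blocks translation. All 3 were given together, so their separate parts cannot be told apart. The (−) and (+) suspensions came from the same 4 mice, Dounce from another 4, and the Tissue libraries of both tables from mice 946, 947, 948 and 949. Preparation and set of mice therefore cannot be told apart where Tissue, Dounce and the suspensions of the Inhibitor Comparison are set against each other.

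Totals ran from 7129763 to 20168439 counts per library in the Sort Comparison and from 2471701 to 14650485 counts in the Inhibitor Comparison. Dounce-TRAP was shallowest, at 2471701 to 4724734 counts. Levels are given below as CPM, a gene's counts relative to its library's total after TMM scaling over the whole table, with a value for each library, and group means carry the SD. The tables were normalized separately, so levels were tested only within a table. A gene passed the test when edgeR's quasi-likelihood test gave an adjusted p under 0.1 and a change over 2-fold. Libraries were made from polyadenylated RNA, so the snoRNAs themselves were not measured.

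The loci and their snoRNAs set the order in which the genes are described. Gas5 (Entrez 14455, mm10 chr1:161035166-161038537, plus strand) carries 9 annotated snoRNA loci, among them Snord47, Snord78 and Snord80 of the box C/D class. Snhg1 (83673, chr19:8723487-8726326, plus strand) carries 8, including Snord22. Snhg5 (72655, chr9:88521053-88522897, minus strand) holds Snord50a and Snord50b, and Snhg6 (73824, chr1:9942025-9944118, minus strand) holds Snord87. The box H/ACA hosts are Snhg3 (399101, chr4:132351933-132353686, minus strand) with Snora73a and Snora73b, and Snhg8 (69895, chr3:123507552-123508336, minus strand) with Snora24. Snhg12 (100039864, chr4:132308678-132311024, plus strand) hosts both classes, Snora16a, Snora44, Snora61 and Snord99. Exons of Snhg3 overlap Rcc1 on the same strand, so reads of the 2 genes could be split between them and the Snhg3 values are uncertain. Snhg6 overlaps Mcmdc2 on the opposite strand only, and alignment was directional.

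The start sites of 6 of the 7 genes were found in the RefSeq promoter table (GRCm38.p6), and they are shown because a run of C and T at the start is the feature shared by the terminal oligopyrimidine class. Each line gives 30 bases on either side of the annotated start on the transcribed strand. Capitals mark the longest run of C and T inside a window of 10 bases on either side of that start, and a run is counted only up to the window's edge.
Gas5, chr1:161035136-161035195, plus strand: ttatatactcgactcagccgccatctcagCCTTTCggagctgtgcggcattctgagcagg
Snhg1, chr19:8723457-8723516, plus strand: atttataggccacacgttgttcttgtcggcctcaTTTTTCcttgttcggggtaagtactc
Snhg5, chr9:88522868-88522927, minus strand: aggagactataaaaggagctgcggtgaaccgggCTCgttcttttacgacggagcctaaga
Snhg3, chr4:132353657-132353716, minus strand: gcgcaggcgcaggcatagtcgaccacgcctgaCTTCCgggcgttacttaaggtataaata
Snhg8, chr3:123508307-123508366, minus strand: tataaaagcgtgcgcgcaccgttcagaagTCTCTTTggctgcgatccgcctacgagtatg
Snhg12, chr4:132308648-132308707, plus strand: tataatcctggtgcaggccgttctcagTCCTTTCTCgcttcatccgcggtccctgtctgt
Inside the window the run was 9 bases long in Snhg12, 7 in Snhg8, 6 in Gas5 and Snhg1, 5 in Snhg3 and 3 in Snhg5. In Snhg1 the marked run goes on past the edge, and in Snhg5 another run of C and T crosses it, so longer runs begin in the window of these genes than the lengths show. Counted in this window, a run of at least 6 was present in 4 of these genes and in 20.2% of the 32851 promoters in the table. Gas5 has a second listed start, where the longest run was 3.

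Cell type markers were read beside the genes as whole lists. The summed level of 10 microglial markers was 397 ± 13.4 CPM (SD, n = 4) in Tissue-Input of the Inhibitor Comparison, 10300 ± 675 in Tissue-TRAP, 9350 ± 1810 in Cell-Input (−) Inhibitors and 46600 ± 2530 in Cell-TRAP (−) Inhibitors. Csf1r was their most abundant gene in Cell-Input and Cell-TRAP of that table. The (+) suspensions held 10300 ± 1960 CPM in Input and 48500 ± 679 in TRAP. Tissue-TRAP thus contained RNA of other cells: 9 neuronal markers led by Snap25 summed to 7760 ± 748 CPM there and to 8080 ± 95.6 in Tissue-Input, against 126 ± 52 in Cell-TRAP (−) Inhibitors. The 7 oligodendrocyte markers led by Mbp summed to 17900 ± 6060 CPM in Cell-Input (−) Inhibitors and 877 ± 409 in Cell-TRAP (−) Inhibitors, and the 7 astrocyte markers led by Slc1a2 to 8830 ± 1950 and 1650 ± 321. The 4 border macrophage markers led by Mrc1 reached 874 ± 325 CPM in Cell-TRAP (−) Inhibitors, and the 6 endothelial markers led by Cldn5 1510 ± 190 in the matching Input. No microglial marker was at 0 in any group, while Mog was at 0 in autoMACS-Tyto-Input and Cldn11 in autoMACS-Tyto-TRAP. In bulk RNA, fewer cells of a type and less RNA per cell cannot be told apart.

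Several libraries stood apart. In autoMACS-Input the library of mouse 72 (replicate 3, 7129763 counts) held 9740 CPM of the 6 nuclear long noncoding RNAs, against 771, 945 and 1320 in the other libraries, and 26800 CPM of microglial markers against 39800 to 42400. Its neuronal markers summed to 62.5 CPM against 18.2 to 19.9. Gas5 was at 185 CPM in that library. In autoMACS-TRAP the library of mouse 73 (replicate 4) had 849 CPM of nuclear long noncoding RNAs against 114, 116 and 136, and Gas5 at 48.1 CPM against 16.4 to 19.6. Dounce-TRAP replicate 3, the library with 2471701 counts, had 10600 CPM of nuclear long noncoding RNAs against 6740 to 7490. Counts that include these libraries are given below with and without them where they differ, with the values of the genes most affected.

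**Figure D1:**
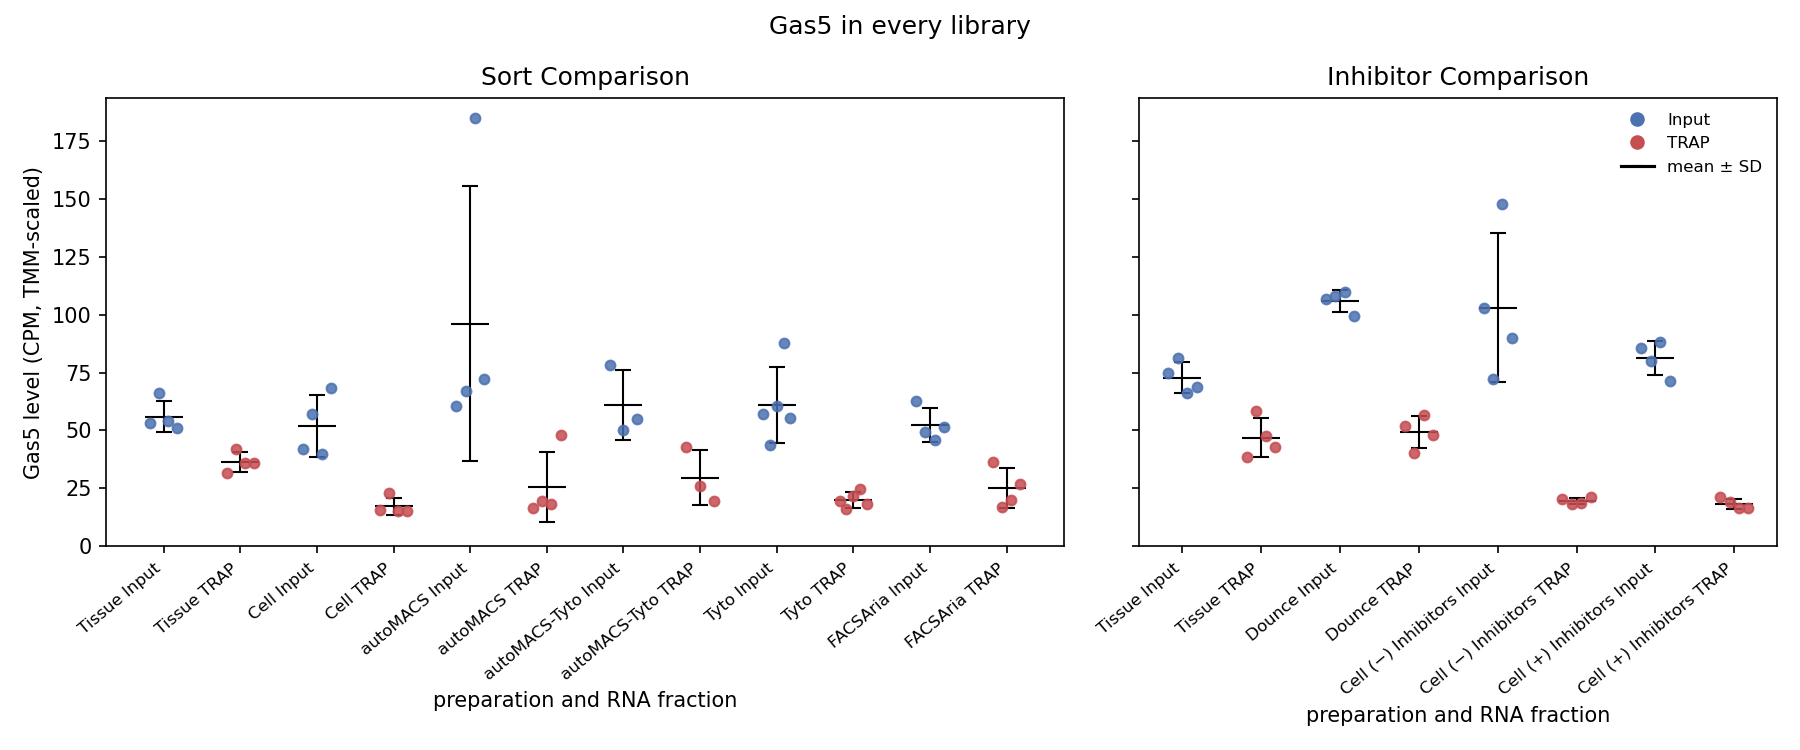
Gas5 level (y axis, TMM-scaled CPM) in each library of both tables by preparation and RNA fraction (x axis), where each point is a library and black marks are the mean ± SD. Cell-TRAP libraries (−) and (+) Inhibitors sit between 16.3 and 21.2, below every Tissue-TRAP and Dounce-TRAP library of that table.

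The first comparison asked whether transcription and translation inhibitors changed the host RNAs in the enzymatic suspension. Gas5 stood at 103, 72.1, 148 and 89.8 CPM in Cell-Input (−) Inhibitors and at 85.7, 79.9, 88.1 and 71.3 CPM in Cell-Input (+) Inhibitors. The ranges overlapped, and the third (−) library was the highest. Its log2 fold change was −0.35 ± 0.15 (SE), with an adjusted p of 1. Snhg1 gave 0.23 ± 0.28, Snhg5 0.12 ± 0.24 and Snhg6 −0.01 ± 0.21 on the log2 scale. The H/ACA hosts Snhg3 and Snhg8 gave −0.02 ± 0.29 and −0.10 ± 0.23, and Snhg12 gave 0.11 ± 0.18. By edgeR 0 of the 7 passed, and 1 (Gas5) had an unadjusted p under 0.05. DESeq2 and limma each called 0, in a comparison where 0.311% of all 15753 genes passed. The median over the 7 was −0.01, and over all genes 0.

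In the ribosome-bound fraction the C/D hosts other than Gas5 were higher with the inhibitors in every mouse, by amounts that did not pass the test. Snhg6 was at 1.63, 0.666, 1.67 and 1.31 CPM in Cell-TRAP (−) Inhibitors and at 2.30, 2.79, 1.90 and 2.99 CPM in Cell-TRAP (+) Inhibitors, from 8 to 22 counts and 22 to 33 counts per library. All (+) libraries lay above all (−) libraries, and the log2 fold change was 0.92 ± 0.40 with an adjusted p of 0.464. Snhg1 was at 2.97, 3.41, 4.75 and 4.35 CPM without and 7.89, 4.62, 6.40 and 5.16 CPM with the inhibitors, overlapping only between the lowest (+) and the highest (−) library. Its difference was 0.65 ± 0.32, with an adjusted p of 0.601. Snhg5 was at 4.01, 2.50, 3.52 and 3.57 CPM and at 5.32, 5.58, 3.89 and 4.98 CPM, a difference of 0.54 ± 0.55. Snhg12 (0.30 ± 0.22) was also higher in each of the 4 mice, while Gas5 (−0.11 ± 0.15), Snhg8 (−0.22 ± 0.31) and Snhg3 (−0.02 ± 0.53) were not. Gas5 in Cell-TRAP was at 20.5, 18.4, 18.8 and 21.2 CPM without and 21.2, 19, 16.3 and 16.3 CPM with the inhibitors, from 180 to 276 counts, and the groups overlapped.

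By edgeR 0 of the 7 passed in TRAP, against 0.638% of all 14723 genes. Snhg6 alone (1 gene) had an unadjusted p under 0.05, DESeq2 and limma called 0, and the fit with mouse as a block called 0 with a smallest adjusted p of 0.117. The median of the 7 was 0.30 and that of all genes −0.03. The SE of Snhg5 draws on a spread shared with Dounce-TRAP, where it ran from 0.388 to 19 CPM, and with only the compared groups in the fit Snhg5 gave 0.56 and did not pass. All 11 immediate early genes, which the dissociation induces, were lower with the inhibitors in both fractions. Their median log2 fold change was −3.90 in Input and −5.24 in TRAP. These RNA levels do not show whether translation was blocked. Fos fell by 6.23 in Input and by 7.95 in TRAP, Fosb fell by 5.87 and 8.25, and Egr1 fell by 4.89 and 6.96.

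**Figure D2:**
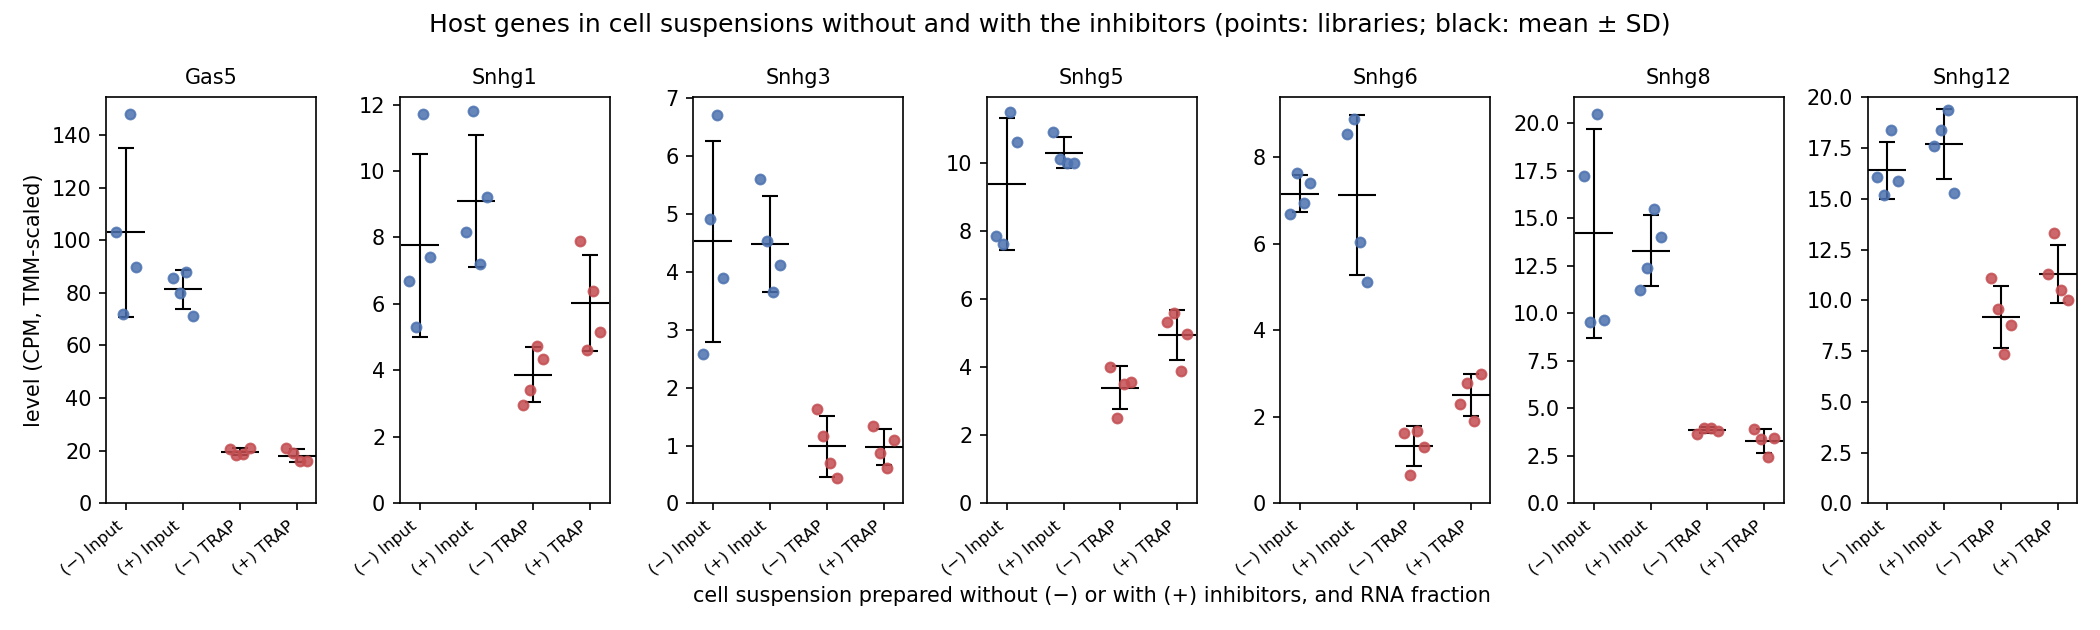
Level of each host gene (y axis, TMM-scaled CPM, separate scale per gene) in cell suspensions without (−) and with (+) inhibitors, Input in blue and TRAP in red, where points are libraries and black marks the mean ± SD. Snhg6 in TRAP is the gene whose (−) and (+) libraries do not overlap, at 0.666 to 1.67 and 1.90 to 2.99.

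Genes with related roles were counted in the same comparisons. Among 6 mRNAs known as NMD targets, Atf3 fell by 4.52 in Input and by 5.59 in TRAP, and Gadd45b fell by 3.11 in TRAP. Atf3 is also an immediate early transcription factor and Gadd45b a stress-induced gene, and the other members of the list did not pass in either fraction. None of the 26 measured protein-coding snoRNA hosts, most of them ribosomal protein genes, passed in Input or TRAP. Their median was −0.04 in Input and 0.37 in TRAP. The 16 NMD factors (median −0.04 in both fractions), the 7 measured snoRNP proteins (−0.06 and −0.03), the 6 nuclear long noncoding RNAs (−0.44 and −0.46) and the 4 measured other noncoding hosts, Snhg4, Snhg7, Snhg10 and Snhg11 (−0.33 and −0.66), had no gene past the test either.

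Whether the inhibitors moved TRAP and Input differently was tested as an interaction. Snhg6 gave the largest difference of the 7 at 0.91 ± 0.41, with an adjusted p of 0.911. Snhg1 and Snhg5 each gave 0.41, with SEs of 0.41 and 0.58, Gas5 gave 0.23 ± 0.22 and Snhg12 0.18 ± 0.27. Snhg3 (−0.02 ± 0.57) and Snhg8 (−0.13 ± 0.36) were closest to 0 or below it. The count was 0 of 7 by edgeR, DESeq2, limma and the fit with a block for mouse, with 1 gene at an unadjusted p under 0.05, against 0.145% of all genes, with medians of 0.23 and −0.04. Of the immediate early genes 5 of 11 passed, all lower, led by Nr4a1 at −3.19 and Dusp1 at −2.43.

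TRAP was then set against Input within each preparation, with the 4 sorts tested as their mean. Gas5 was lower in TRAP in every preparation, though not always by over 2-fold, and the other genes varied. In Cell (−) Inhibitors the Gas5 levels given above, 72.1 to 148 CPM in Input and 18.4 to 21.2 CPM in TRAP, did not overlap. Gas5 was 5.22-fold lower in TRAP (log2 −2.38 ± 0.16, adjusted p = 3.41e-14), in 4 of 4 mice. With the inhibitors it was 4.47-fold lower (−2.16 ± 0.16, adjusted p = 2.77e-13), again without overlap. Of the C/D hosts, Snhg6 was at 6.68, 7.63, 6.95 and 7.40 CPM in Cell-Input (−) Inhibitors and 5.38-fold lower in TRAP, at −2.43 ± 0.30. Snhg5 fell by 1.46 ± 0.42 and Snhg1 by 1.00 ± 0.29, the smallest change that passed. Among the H/ACA hosts, Snhg3 was 4.49-fold and Snhg8 3.67-fold lower, and Snhg12 gave −0.83 ± 0.19 and did not pass.

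Cell type markers differed between the fractions of the same suspension. In Cell (−) Inhibitors the microglial sum was 9350 CPM in Input and 46600 CPM in TRAP. The oligodendrocyte sum was 17900 and 877 CPM, and the astrocyte sum 8830 and 1650 CPM. In Cell (+) Inhibitors these sums were 10300 and 48500, 15700 and 576, and 8770 and 1450 CPM. Nuclear long noncoding RNAs went from 1220 to 282 CPM without and from 860 to 228 CPM with inhibitors. The part of these sums in the host gene differences was not tested.

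Without inhibitors 6 of the 7 passed, all lower, where 36.8% of 15894 genes were called lower. The medians were −1.88 for the 7 and −0.42 for all genes. With a block for mouse the count was 5, since Snhg1 was then at −0.63 (adjusted p = 0.0394). Snhg1 was lost as well with size factors and with DESeq2 (−0.88 each), limma (−0.84), the compared groups alone (−0.66) and the earlier table (−0.68). Snhg1 also missed the 2-fold threshold without Cell-TRAP (−) replicate 1 (−0.89) or 2 (−0.95), or without Cell-Input (−) replicate 3 (−0.74). In Cell (+) Inhibitors 5 passed, all lower, against 35.8% of all genes, with medians of −1.51 and −0.39. They were Gas5, Snhg3 (−2.19 ± 0.41), Snhg5 (−1.05 ± 0.41), Snhg6 (−1.51 ± 0.28) and Snhg8 (−2.01 ± 0.26). Snhg5 was lost with the block (−0.77, adjusted p = 0.00366), which left 4, and without Cell-TRAP (+) replicate 3 (−0.95). Size factors and DESeq2 (−0.93 each), limma (−0.94), the compared groups alone (−0.76) and the earlier table (−0.72) lost it too.

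The unsorted and sorted preparations of the Sort Comparison gave values of the same sign. Cell-Input held Gas5 at 41.8, 57, 40 and 68.4 CPM and Cell-TRAP at 15.7, 22.9, 15.1 and 15.0 CPM. No TRAP library reached an Input library, and the log2 fold change was −1.60 ± 0.30 (adjusted p = 1.13e-05). Snhg6 changed most of the 7 there, at −2.08 ± 0.33, followed by Snhg3 (−1.90 ± 0.46), Snhg8 (−1.74 ± 0.30) and Snhg5 (−1.06 ± 0.29), while Snhg1 (−0.46 ± 0.30) and Snhg12 (−0.51 ± 0.20) did not pass. That made 5 of 7, against 30.9% of all genes called lower, with medians of −1.60 and −0.07. From Input to TRAP the microglial sum went from 5920 to 39300 CPM, the oligodendrocyte sum from 11300 to 544 CPM, the astrocyte sum from 7480 to 1730 CPM and the neuronal sum from 695 to 198 CPM, and their part was not tested. Snhg5 was at −0.86 without Cell-TRAP replicate 3 and did not pass. By limma the count was 6, with Snhg1 at −1.06 (adjusted p = 0.00134). DESeq2 size factors moved the median of all genes in this comparison by −0.41, and the share of calls that were higher from 35.2% to 21%.

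Over the mean of the 4 sorted preparations 5 of the 7 passed, against 19% of all genes called lower, with medians of −1.40 and −0.19. Snhg6 and Snhg8 were each 3.27-fold lower in TRAP, Snhg3 3.07-fold, Gas5 2.65-fold and Snhg1 2.18-fold. Snhg12 (−0.91 ± 0.10, adjusted p = 3.93e-10) and Snhg5 (−0.86 ± 0.15, adjusted p = 6.22e-06) were lower by less than 2-fold. Set side by side for each mouse, Gas5, Snhg1, Snhg6, Snhg8 and Snhg12 were lower in TRAP in 16 of 16 sorted preparations, and Snhg3 and Snhg5 in 15 of 16. These preparations came from 10 mice, since some mice were sorted in more than 1 way. The TRAP to Input ratio of Snhg6 ran from 0.155 to 0.492. For Gas5 no range is given, since the pairing of mice 72 and 73 in autoMACS is in doubt. Without autoMACS-Input replicate 3 Gas5 stood at −1.27, and without autoMACS-TRAP replicate 4 at −1.53, with 5 genes past the test each time. Snhg5 passed without autoMACS-Tyto-TRAP replicate 1 (−1.03). Mean sums over the sorted groups also differed by fraction, with microglial markers at 37600 to 44800 CPM in Input and 48100 to 51900 CPM in TRAP. Neuronal markers were at 14.8 to 30 and 5.40 to 7.0 CPM, and nuclear long noncoding RNAs at 640 to 3190 and 167 to 304 CPM. The highest noncoding RNA means were those of autoMACS, raised by 1 library in each fraction, and its medians were 1130 and 126 CPM. The autoMACS-Input median for neurons was 19.7 CPM. The part of these sums was not tested.

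In whole tissue fewer of the 7 passed by edgeR, and the Gas5 estimate was smaller than in the suspensions, the sorts and Dounce. This did not hold for every gene. In the Sort Comparison Snhg12 was at −0.92 in Tissue and −0.51 in Cell. Tissue-Input of the Inhibitor Comparison held Gas5 at 74.7, 81.2, 66.4 and 68.7 CPM and Tissue-TRAP at 38.5, 58.4, 47.7 and 42.8 CPM. All TRAP libraries were below all Input libraries, and the difference of −0.64 ± 0.15 was under 2-fold. Snhg8 passed in that table (−1.26 ± 0.25, adjusted p = 0.00018), with 20.2, 22, 13.4 and 20.8 CPM in Input and 7.77, 12.6, 5.27 and 6.24 CPM in TRAP. It was the only 1 of the 7, where 2.33% of all genes were called lower, and the medians were −0.64 and 0. Microglial markers summed to 397 CPM in Tissue-Input and 10300 CPM in Tissue-TRAP, oligodendrocyte markers to 4760 and 1110 CPM, and nuclear long noncoding RNAs to 4210 and 1940 CPM, and their part was not tested. Snhg6 (−0.91, adjusted p = 0.0162) missed the fold threshold alone, and Snhg5 (−0.92, adjusted p = 0.138) missed both. Snhg5 passed without Tissue-TRAP replicate 2 (−1.22) and Snhg6 without replicate 3 (−1.02). Both passed in the earlier table (Snhg5 −1.02, Snhg6 −1.08), where the count was 3. In the Sort Comparison, whose Tissue libraries come from the same mice, edgeR called 0 of the 7 at a background of 11.1% in either direction (1459 genes higher and 297 lower), with 4 at an unadjusted p under 0.05. DESeq2 and limma each called 2, Snhg6 and Snhg12, whose edgeR values were −0.94 ± 0.30 and −0.92 ± 0.19. Snhg6 also passed in edgeR without Tissue-TRAP replicate 1 (−1.08). Gas5 gave −0.62 ± 0.29 there, and the medians were −0.62 and 0.03.

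**Figure D3:**
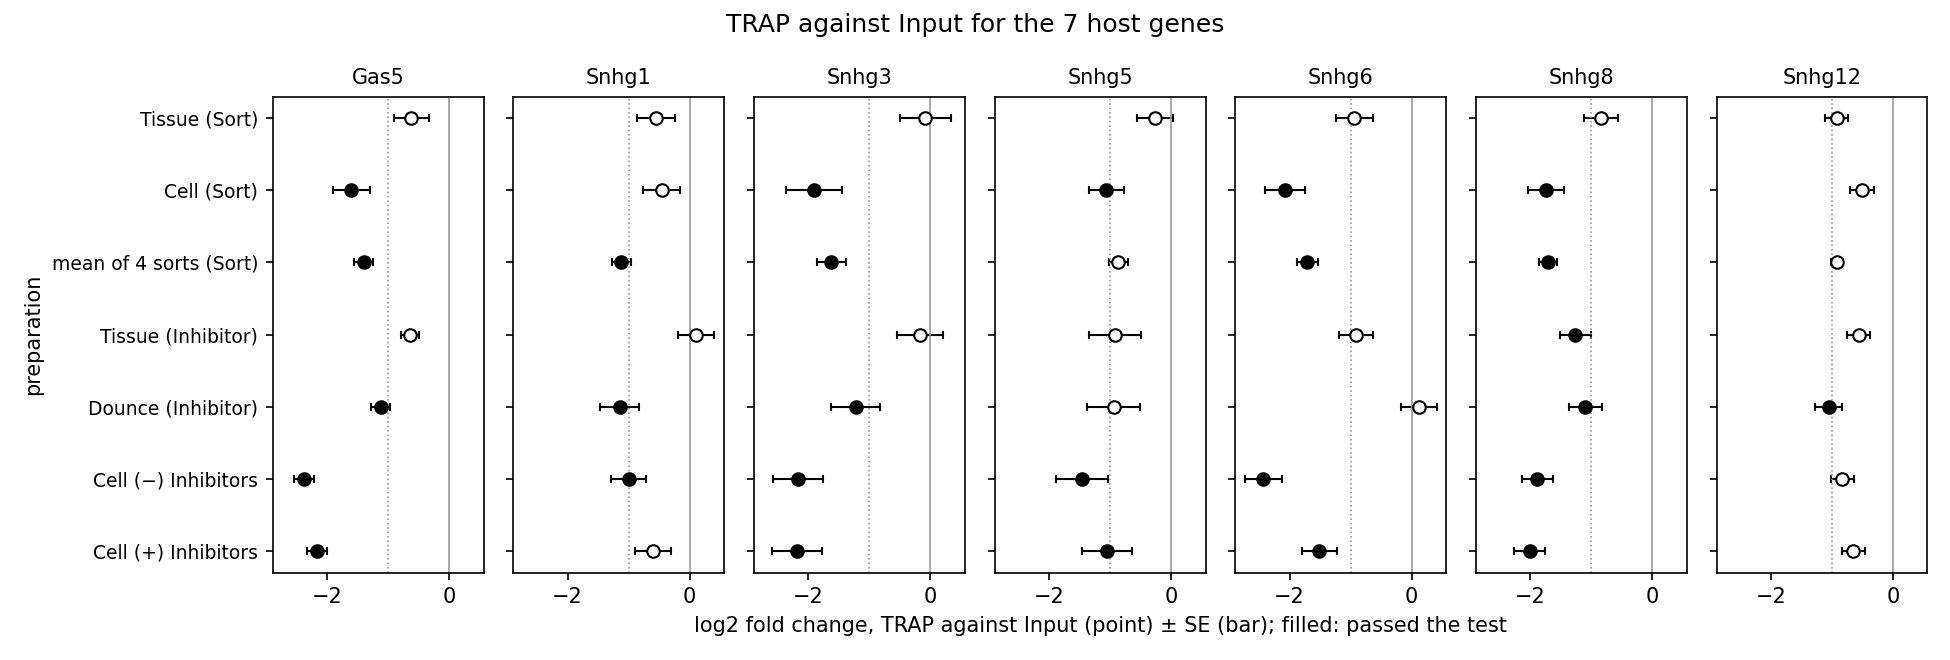
Log2 fold change of TRAP against Input (x axis) for each host gene (panels) in each preparation (y axis), where points are edgeR estimates, bars are ± SE and filled points passed the test. Gas5 reads from −2.38 in Cell (−) Inhibitors to −0.62 in Tissue of the Sort Comparison.

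Other transcripts were counted beside the 7 in TRAP against Input. All 4 other noncoding hosts were lower in Cell (−) Inhibitors, led by Snhg4 (−2.74) and Snhg10 (−2.36), and all 4 in Cell (+) Inhibitors. Nuclear long noncoding RNAs, which are retained in the nucleus and are little translated, were lower for 5 of 6 in both suspensions, with Rian at −3.72 and Miat at −2.76 without inhibitors. Of the 26 protein-coding hosts, 10 were lower in Cell (−) Inhibitors (median −0.76), led by Rps20 (−1.91), Tpt1 (−1.67), Rps12 (−1.63) and Rpl32 (−1.62), 2 in Cell (+) Inhibitors (median −0.38) and 9 over the sorted preparations (median −0.86). The shares of all genes called lower there were 36.8%, 35.8% and 19%. The first of these counts is thus near the background, the second below it and the third above it. Over the sorted preparations the median of all genes was −0.19. The difference of these hosts from the background was not tested. In whole tissue 0 of 26 were called in either table by edgeR, with medians of 0.13 and 0.15. The NMD factors had no lower gene in any suspension or sort, and their medians ran from 0 to 0.50. In Cell (−) Inhibitors Smg8, a subunit of the SMG1 kinase complex, was the 1 factor called, at 1.04.

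The next comparison set the suspension against intact tissue within the same RNA fraction. In TRAP, Gas5 stood at 38.5 to 58.4 CPM in Tissue and 18.4 to 21.2 CPM in Cell (−) Inhibitors, without overlap. The change was −1.20 ± 0.15 (adjusted p = 1.02e-06). Snhg3 was at 1.87, 3.89, 4.06 and 3.80 CPM in Tissue-TRAP and at 1.63, 1.17, 0.703 and 0.435 CPM in Cell-TRAP (−) Inhibitors, from 5 to 22 counts. Every suspension library lay below every tissue library, and Snhg3 fell by 1.71 ± 0.51. Snhg6 fell by 1.28 ± 0.40, with Tissue-TRAP at 2.90 to 4.06 CPM and Cell-TRAP (−) Inhibitors at 0.666 to 1.67 CPM. Snhg8 was at −1.0 ± 0.30 and just missed the fold threshold, and passed without Tissue-TRAP replicate 1 (−1.01), 3 (−1.15) or 4 (−1.09), or without Cell-TRAP (−) replicate 2 or 3 (−1.01 each). It passed too with size factors and with DESeq2 (−1.02 each), no filter (−1.04) and the stricter filter (−1.20), and DESeq2 counted 4 of the 7. Snhg1 (−0.09), Snhg5 (0.25) and Snhg12 (−0.24) did not pass. The count was 3 of 7, at a background of 30.8% of genes called lower, with medians of −1.0 and −0.13.

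With inhibitors Gas5 fell by 1.31 ± 0.15 against Tissue-TRAP (adjusted p = 3.68e-07), Snhg3 by 1.74 ± 0.51 and Snhg8 by 1.22 ± 0.31. Those 3 of 7 stood against 31.2% of all genes called lower, with medians of −0.36 and −0.13, and Snhg6 was at −0.36 and did not pass. Snhg8 was at −0.91 without Tissue-TRAP replicate 2 and then did not pass. Whether the inhibitors restored any part of these levels is the direct comparison of (+) and (−) given above, in which no gene of the 7 passed. In the Sort Comparison the same contrast called 4 of 7 lower, Gas5 (−1.08 ± 0.29), Snhg3 (−1.68 ± 0.53), Snhg6 (−1.14 ± 0.32) and Snhg8 (−1.14 ± 0.32), at a background of 29.2%. The medians were −1.08 and −0.01. Neuronal markers there summed to 6090 CPM in Tissue-TRAP and 198 CPM in Cell-TRAP, and microglial markers to 7950 and 39300 CPM. The part of these sums was not tested. Gas5 was at −0.99 without Tissue-TRAP replicate 2 and Snhg8 at −0.98 without Cell-TRAP replicate 1, and neither passed then. DESeq2 size factors moved the all-gene median there by −0.33 and the share of higher calls from 46.2% to 35.1%.

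Cell composition moved with these differences. Neuronal markers were lower for 9 of 9 in Cell-TRAP (−) Inhibitors than in Tissue-TRAP (median −5.81) and microglial markers higher for 9 of 10 (median 2.23), and their part in the host gene values was not tested. All 4 other noncoding hosts were lower as well, led by Snhg11 (−5.42), as were 4 of 6 nuclear long noncoding RNAs, led by Meg3 (−5.39). Only 1 of 26 protein-coding hosts passed, Eif4a2 at −1.26, and their median was −0.54. Of all 14723 genes in this comparison, 4541 (30.8%) were lower and 3287 higher. Among the snoRNP proteins Nhp2 was lower (−1.11), and of the NMD factors Smg8 was higher (1.22).

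In Input no host RNA of the suspension without inhibitors differed from tissue by more than 2-fold. Gas5 was at 66.4 to 81.2 CPM in Tissue-Input of the Inhibitor Comparison and at 72.1 to 148 CPM in Cell-Input (−) Inhibitors, and the ranges overlapped. Its difference was 0.36 ± 0.15 (adjusted p = 0.0399). Snhg1 (0.82 ± 0.29, adjusted p = 0.016) and Snhg5 (0.60, adjusted p = 0.0369) were higher by less than 2-fold, without overlap, and Snhg8 was at −0.57 (adjusted p = 0.0295). By edgeR 0 of 7 passed, against 44.7% of genes called in either direction, 4 had an unadjusted p under 0.05, and DESeq2 and limma called 0. Medians were 0.10 and 0.05. With inhibitors 1 of 7 passed, at a background of 25.5% called higher: Snhg1 was at 5.15, 5.27, 3.34 and 2.10 CPM in Tissue-Input and at 8.18, 11.8, 7.20 and 9.23 CPM in Cell-Input (+) Inhibitors. The groups did not overlap, and Snhg1 rose by 1.05 ± 0.29 (adjusted p = 0.00288). The medians were 0.05 and 0.03. Snhg1 did not pass without Cell-Input (+) replicate 2 (0.90) or without Tissue-Input replicate 3 (0.98) or 4 (0.84), which left a count of 0. Neuronal markers summed to 8080 CPM in Tissue-Input and 651 CPM in Cell-Input (+) Inhibitors, oligodendrocyte markers to 4760 and 15700 CPM and microglial markers to 397 and 10300 CPM, and their part was not tested. In the Sort Comparison 0 of 7 passed by edgeR, DESeq2 and limma, 2 had an unadjusted p under 0.05 and the background was 46.1%. Snhg5 (0.83 ± 0.24) and Snhg12 (−0.49 ± 0.20) were farthest from 0, and the medians were 0.07 and 0.17.

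Whether dissociation moved TRAP and Input by different amounts was tested in the Inhibitor Comparison as the difference of both suspension-to-tissue changes. TRAP and Input libraries share mice, and this difference was not fitted with a block for mouse. The suspension change of Gas5 was lower in TRAP than in Input by a log2 difference of −1.75 ± 0.21 (adjusted p = 6.45e-08). Snhg3 gave −2.0 ± 0.56, Snhg6 −1.52 ± 0.41 and Snhg1 −1.10 ± 0.42. These 4 of 7 passed, against 35.7% of all genes called lower, and the median of the 7 was −1.10 where that of all genes was −0.61. Snhg8 (−0.61), Snhg5 (−0.54 ± 0.60) and Snhg12 (−0.27) did not pass. Snhg1 was at −0.99 without Cell-TRAP (−) replicate 1, −0.92 without Tissue-TRAP replicate 2, −0.89 without Tissue-Input replicate 4 and −0.84 without Cell-Input (−) replicate 3, and missed the threshold each time. Its call was also lost with size factors and with DESeq2 (−0.95 each), limma (−0.97), the compared groups alone (−0.65, adjusted p = 0.196) and the earlier table (−0.60, adjusted p = 0.225), and each of these left 3 genes. Of the protein-coding hosts 12 of 26 were lower by the same measure (median −0.98), led by Tpt1 (−2.02) and Rps20 (−1.94). All 10 microglial markers were lower by it too (median −2.42), and their summed levels in the 4 groups are those given above. The part of cell composition in the host gene values was not tested.

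Dounce dissociation was cold and without enzymes, and a whole brain went into each preparation where the others used a hemisphere. RNA integrity was not analysed here, and its part in the Dounce values was not tested. Snhg5 in Input was at 5.33, 5.95, 6.48 and 4.63 CPM in Tissue and at 16.8, 15.3, 6.71 and 17.5 CPM in Dounce. All Dounce libraries were higher, the third only barely, and Snhg5 rose by 1.55 ± 0.25 (adjusted p = 1.43e-05). Snhg1 rose by 1.53 ± 0.29, to between 8.67 and 11.6 CPM, and the H/ACA host Snhg3 by 1.41 ± 0.29, to between 5.46 and 11.3 CPM. Gas5 was at 107, 108, 110 and 99.5 CPM in Dounce-Input, above every Tissue-Input library, and its change of 0.75 ± 0.15 (adjusted p = 0.000176) was under 2-fold. Snhg6 (0.13), Snhg8 (−0.21) and Snhg12 (−0.40) did not pass. The count was 3 of 7 higher, at a background of 28.7%, with medians of 0.75 and 0.10. Against Cell-Input (−) Inhibitors only Snhg3 passed (1.31 ± 0.29, adjusted p = 0.000384), 1 of 7 at a background of 28.8%, with medians of 0.40 and −0.06. Snhg5 was at 0.95 there and passed without Cell-Input (−) replicate 3 (1.06) or 4 (1.02) or without Dounce-Input replicate 3 (1.17), which made a count of 2. Neuronal markers summed to 604 CPM in Cell-Input (−) Inhibitors and 3070 CPM in Dounce-Input, and microglial markers to 9350 and 2230 CPM. Oligodendrocyte markers summed to 17900 and 5690 CPM, endothelial markers to 1510 and 28.2 CPM and nuclear long noncoding RNAs to 1220 and 25000 CPM. The part of these sums was not tested. The Tissue-Input sums are given above.

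Gas5 in Dounce-TRAP was near its level in Tissue-TRAP, which came from other mice. It was at 51.9, 40.2, 56.7 and 48.1 CPM, from 146 to 191 counts, overlapping Tissue-TRAP (0.12 ± 0.15, not past the test) and above every Cell-TRAP (−) library. Against Cell-TRAP (−) Inhibitors Gas5 was higher by 1.32 ± 0.16 (adjusted p = 1.4e-06), Snhg3 by 1.93 ± 0.53 and Snhg6 by 2.30 ± 0.41. These 3 of 7 stood against 20.7% of genes called higher, with medians of 1.11 and −0.01. Snhg6 was at 5.30, 4.84, 11.7 and 4.63 CPM from 15 to 30 counts, and without Dounce-TRAP replicate 3 its difference was 1.89 and it still passed. Snhg5 (1.11 ± 0.57) did not pass, but did without Dounce-TRAP replicate 3 (1.47), where the count was 4, or without replicate 4 (1.34). Those replicates held its lowest Dounce-TRAP levels. Snhg5 ran there from 0.388 CPM (1 count) in replicate 3 to 19 CPM (68 counts) in replicate 1. In this comparison too the marker sums differed, with neurons at 1360 ± 342 CPM in Dounce-TRAP and 126 ± 52 in Cell-TRAP (−) Inhibitors. Microglia were at 42100 ± 2920 and 46600 ± 2530 CPM, and nuclear long noncoding RNAs at 7900 ± 1850 and 282 ± 85.9 CPM. Their part was not tested.

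Against Tissue-TRAP, 2 of 7 were higher in Dounce-TRAP, at a background of 23.2%, and 1 lower, at a background of 27.1%, with medians of 0.13 and −0.06. Snhg12 fell by 1.06 ± 0.24, from 10.6, 14.5, 9.99 and 10.0 CPM to 5.30, 6.31, 5.05 and 4.01 CPM without overlap. It was at −0.92 without Tissue-TRAP replicate 2 and −0.96 without Dounce-TRAP replicate 4, and then did not pass. Snhg6 was higher by 1.02 ± 0.39 (adjusted p = 0.0271) and Snhg5 by 1.35 ± 0.58 (adjusted p = 0.0454). Neither call was stable. Snhg5 was at 19, 5.89, 0.388 and 3.39 CPM in Dounce-TRAP, from 68, 28, 1 and 11 counts, and at 2.15, 4.69, 2.30 and 2.73 CPM in Tissue-TRAP. Without Dounce-TRAP replicate 1 its change was 0.24 (adjusted p = 0.683), and it also missed the threshold without Tissue-TRAP replicate 1 (adjusted p = 0.106) or 3 (adjusted p = 0.1). Snhg6 did not pass without Dounce-TRAP replicate 3 (0.61, adjusted p = 0.136) or without Tissue-TRAP replicate 1 (0.96) or 4 (0.97). Leaving out Dounce-TRAP replicate 3 left a count of 2, and leaving out Tissue-TRAP replicate 1 a count of 1. With every library kept, Snhg6 was lost with size factors (0.97), no filter (0.95), DESeq2 (0.96) and limma (0.87), and Snhg5 with limma (0.45) and the compared groups alone (adjusted p = 0.125). Neuronal markers summed to 7760 CPM in Tissue-TRAP and 1360 CPM in Dounce-TRAP, microglial markers to 10300 and 42100 CPM, and nuclear long noncoding RNAs to 1940 and 7900 CPM. Their part in these changes was not tested.

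Within Dounce, 5 of 7 were lower in TRAP than in Input, against 26.7% of genes called lower, with medians of −1.10 and −0.21. Gas5 fell by 1.12 ± 0.16 (adjusted p = 2.23e-07) without overlap between the fractions, Snhg1 by 1.15 ± 0.32, Snhg3 by 1.22 ± 0.40, Snhg8 by 1.10 ± 0.27 and Snhg12 by 1.05 ± 0.22. Snhg6 gave 0.12 and did not pass, and without Dounce-TRAP replicate 3 it was at −0.58 (adjusted p = 0.0619). Snhg5 (−0.94 ± 0.43) passed without Dounce-TRAP replicate 1 (−2.0) or Dounce-Input replicate 3 (−1.17), and also with size factors (−1.16), DESeq2 (−1.17) and limma (−2.0), where the count by DESeq2 and by limma was 6. With a block for mouse Snhg5 passed (−1.46, adjusted p = 0.027) and Snhg12 did not (−0.99), so the count was again 5. Snhg12 was lost without Dounce-Input replicate 1 (−0.79), Snhg3 without Dounce-TRAP replicate 2 (−0.89), and Snhg1 (−0.96) and Snhg12 (−0.95) without Dounce-TRAP replicate 4, which left 3. Without Dounce-TRAP replicate 3 the count was 5, with Gas5 at −1.50, Snhg1 at −1.66, Snhg3 at −1.47, Snhg8 at −1.55 and Snhg12 at −1.35. Between Dounce-Input and Dounce-TRAP the microglial sum went from 2230 to 42100 CPM, the neuronal sum from 3070 to 1360 CPM and nuclear long noncoding RNA from 25000 to 7900 CPM, and their part was not tested. DESeq2 size factors moved the all-gene median here by −0.23, in Cell (−) Inhibitors by 0.13 and in Cell (+) Inhibitors by 0.12.

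Other hosts were counted in the Dounce libraries too. In Dounce-Input all 4 other noncoding hosts were higher than in Tissue-Input, led by Snhg11 (2.66) and Snhg7 (1.84), as were all 6 nuclear long noncoding RNAs, led by Neat1 (5.47) and Kcnq1ot1 (3.59). By contrast 16 of 26 protein-coding hosts were lower (median −1.04), led by Hspa8 (−2.87), Eef2 (−1.86), Rpl27a (−1.66) and Rpsa (−1.58), and none was higher. Of all 15753 genes, 3373 were lower and 4528 higher. The difference between noncoding and protein-coding hosts was not tested, and Snhg6, Snhg8 and Snhg12 did not rise. In TRAP 19 of 26 were lower (median −1.18), and 5 of 6 nuclear long noncoding RNAs and 1 of 4 other noncoding hosts (Snhg11, 2.09) were higher, where 27.1% of all genes were lower and 23.2% higher. Nop10 (−2.92) and Nhp2 (−2.56), both H/ACA snoRNP proteins, were lower in Dounce-Input, and Dkc1 (1.67), the pseudouridine synthase of the same particle, was higher. Of the NMD factors Smg1 (3.01) and Upf3b (1.50) were higher and Rbm8a (−1.24) lower. Summed nuclear long noncoding RNA was 25000 ± 2870 CPM in Dounce-Input and 4210 ± 328 in Tissue-Input, and its part in the host gene values was not tested.

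Sorting was the last comparison. Sorted and Cell libraries came from different mice, so sorting and set of mice cannot be told apart where they are set against each other. Against Cell-Input, the mean of the 4 sorted Inputs called 0 of 7 by edgeR, DESeq2 and limma, with 3 at an unadjusted p under 0.05, where 51.8% of all genes passed. Snhg12 was at 6.21, 10.0, 6.97 and 8.38 CPM in Cell-Input and at 11.6, 13.4, 12.9 and 13.9 CPM in FACSAria-Input, and every sorted library was above every unsorted one. Its change of 0.76 ± 0.16 (adjusted p = 0.000176) was under 2-fold, as was that of Snhg1 (0.79 ± 0.24). Gas5 gave 0.11, and −0.01 without autoMACS-Input replicate 3. The medians were 0.11 for the 7 and −0.09 for all genes, and DESeq2 size factors moved the latter by −0.20. Summed microglial markers were at 5920 CPM in Cell-Input and 37600 to 44800 CPM in the sorted groups on average, astrocyte markers at 7480 and 207 to 307 CPM, and oligodendrocyte markers at 11300 and 215 to 492 CPM. Their part in these values was not tested. Of the related lists, 3 of 4 other noncoding hosts were lower, where 5457 of all 15750 genes were lower and 2702 higher. They were led by Snhg10 (−3.55), which was at 0 in autoMACS-Tyto-Input, so its fold change is not exact. Higher were 2 snoRNP proteins, Nop58 (1.10) and Fbl (1.09), the coding host Rpl12 (1.16) and the NMD kinase Smg1 (1.29).

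In TRAP the sorted mean called 0 of 7 against Cell-TRAP by edgeR, DESeq2 and limma, with 3 at an unadjusted p under 0.05 and a background of 24.3%. Gas5 was at 0.51 ± 0.24 (0.39 without autoMACS-TRAP replicate 4), Snhg8 at 0.69 ± 0.27 and Snhg12 at 0.57 ± 0.15, with medians of 0.43 and −0.05. None of the 26 protein-coding hosts and none of the 11 immediate early genes passed there. Marker sums moved here as well, with neurons at 198 ± 103 CPM in Cell-TRAP and under 10 CPM on average in each sorted TRAP group, and their part was not tested.

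Differences among the sorts were tested as any difference between the 4, with an adjusted p under 0.1 and no fold threshold. Mice 69, 945 and 991 are in both Tyto and FACSAria, and mice 66, 67 and 73 in both autoMACS and autoMACS-Tyto, which this fit does not model. In Input 2 of 7 differed, at a background of 16.9%. Snhg8 (adjusted p = 0.019) was at 20.2, 23.9, 47 and 20.3 CPM in autoMACS, 22.7, 19.9 and 14.8 in autoMACS-Tyto, 14.1 to 22.8 in Tyto (median 15.5) and 11, 11.9, 11.9 and 12.8 in FACSAria. FACSAria was below all other sorted libraries. Snhg12 (adjusted p = 0.0711) was at 16.6, 17.9, 36 and 17.5 CPM in autoMACS, above FACSAria and overlapping the others. Snhg12 was lost without autoMACS-Input replicate 3 (adjusted p = 0.318) or FACSAria-Input replicate 1 (adjusted p = 0.11). Without the former Snhg8 kept an adjusted p of 0.0442, and the count was 1. Snhg12 was also lost with limma (adjusted p = 0.115) and with the compared groups alone (adjusted p = 0.121), each with a count of 1. Adding mouse to limma as a random block, an alternative chosen after seeing the data, gave the same count of 1 and an adjusted p of 0.119 for Snhg12, so the block itself changed no call. By edgeR with every library kept, Gas5 had an adjusted p of 0.135 and Snhg5 of 0.17. Without autoMACS-Input replicate 3, where Gas5 was at 185 CPM, these were 0.616 and 0.341. Gas5 passed without autoMACS-Input replicate 1 (adjusted p = 0.065), 2 (0.0964) or Tyto-Input replicate 4 (0.0971). It also passed by DESeq2 with every library kept (0.0718), which called 3. Snhg5 passed without autoMACS-Input replicate 1 (0.0452), where the count was 4. In TRAP 0 of 7 differed by edgeR, DESeq2 and limma at a background of 28.8%, with 0 at an unadjusted p under 0.05 and a smallest adjusted p of 0.189. Snhg8 had an adjusted p of 0.0801 without Tyto-TRAP replicate 4.

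Ordered by mean level, Gas5 in TRAP of the Inhibitor Comparison ran from Dounce (49.2 ± 6.96 CPM) and Tissue (46.9 ± 8.56) to Cell (−) (19.7 ± 1.32) and Cell (+) Inhibitors (18.2 ± 2.35). Neighbours overlapped except Tissue and Cell (−). In Input the order was Dounce (106 ± 4.66), Cell (−) (103 ± 32.2), Cell (+) (81.3 ± 7.48) and Tissue (72.8 ± 6.64), and all neighbours overlapped. In TRAP of the Sort Comparison it was Tissue (36.4 ± 4.37), autoMACS-Tyto (29.6 ± 12.0), autoMACS (25.6 ± 15.1), FACSAria (25.1 ± 8.65), Tyto (20 ± 3.33) and Cell (17.2 ± 3.80). The place of autoMACS-TRAP rests on replicate 4 at 48.1 CPM, since the others, at 16.4 to 19.6, lay below the Tyto mean. The Sort Inputs lay between 51.8 ± 13.4 CPM in Cell and 96.2 ± 59.4 CPM in autoMACS, and neighbours overlapped in both fractions. The autoMACS-Input mean includes replicate 3 at 185 CPM, with the others at 60.5 to 72.2. For the other genes, neighbours separated in few places. Snhg6 in TRAP did so between Dounce and Tissue and between Cell (+) and Cell (−), Snhg3 between Tissue and Cell (−), Snhg8 between Dounce and Cell (−), and Snhg12 between Cell (−) and Dounce. In Input Snhg1 and Snhg5 separated between Cell (−) and Tissue, and in the Sort Comparison Snhg1 between autoMACS-Tyto and Cell and Snhg12 between Tissue and Cell.

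The genes also varied together, most closely Gas5 with Snhg8. Pearson's r of log2(CPM + 1) between them was 0.91 over the 32 libraries of the Inhibitor Comparison and 0.93 over the 48 of the Sort Comparison. Gas5 gave 0.84 and 0.91 with Snhg6, 0.86 and 0.81 with Snhg3, 0.55 and 0.78 with Snhg5, 0.51 and 0.66 with Snhg1, and 0.40 and 0.83 with Snhg12. The lowest pair was Snhg3 with Snhg12 in the Inhibitor Comparison (0.18) and Snhg1 with Snhg3 in the Sort Comparison (0.46). These are descriptions, since libraries share mice and the TRAP to Input difference runs through all of them. Of 10944 other genes, the 5 whose pattern was most like the mean of the 7 over the 32 libraries were Neo1, Amt, Cdh20, Hs3st1 and Cdc37l1, each with r of 0.93. Over the 48 libraries their r was −0.06, 0.30, 0.01, 0.02 and 0.29. For Gas5 alone they were Ltbp3 (0.97), Jph1, Fah, Arhgap23 and Pex5l (0.96 each), with 0.24, 0.28, 0.30, 0.15 and 0.23 over the 48.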

How the data were processed

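Input and TRAP RNA from 48 libraries (Sort Comparison) and 32 libraries (Inhibitor Comparison) was measured. The authors aligned directional reads to mm10 in Strand NGS, removed duplicates, normalized with DESeq2 and kept a gene if each sample of some group exceeded 5 reads. The deposited raw columns hold expected counts, of which 33.2% and 20.8% were whole numbers, and the normalized columns deposited by the authors hold log2 values centred on Tissue-Input. An earlier deposited table of 24 Inhibitor libraries (15535 genes, without Dounce) was used only as an alternative. Columns with the authors' own comparisons (fold changes and p-values) were not used. Dates had replaced 23 gene symbols per deposited file. These genes were kept and tested under the deposited symbol, and none is named here.

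Expected counts were rounded and fitted with edgeR 4.0.16 (quasi-likelihood, TMM, R 4.3.3), all groups of a fraction or table in one fit, after keeping genes with more than 5 counts in every library of at least 1 group. All 7 genes passed this filter in each fit. P-values were adjusted by Benjamini-Hochberg over all genes tested. SEs are the absolute log2 fold change over the root of F. Alternatives were DESeq2 size factors, no filter, at least 10 counts in every library, DESeq2 1.42.0, limma 3.58.1 on the log2 values, the compared groups alone, a replicate block for mouse (for comparisons of the sorts, added after seeing the data, a random block in limma), the earlier table, and each library left out. Python 3.11.15, numpy 2.4.6 and pandas 2.3.3 were used for summaries. The fits were tested on simulated data in which few genes changed, which does not test the scaling where a large share of genes differed.

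Mouse numbers in the sample titles pair the libraries. Deviations from group means correlated between same-mouse libraries with a median r of 0.11 (autoMACS) to 0.52 (Cell) for TRAP and Input, and 0.09 (Input) and 0.33 (TRAP) for both suspensions. The 7 genes were named in every comparison, and of each gene list up to 4 called genes with the largest change. The lists were protein-coding and other noncoding snoRNA hosts, NMD factors, NMD targets, snoRNP proteins, nuclear long noncoding RNAs, immediate early genes and cell type markers. Genes of like pattern needed a mean of at least 10 CPM. Members and lists were chosen with earlier results of these data known.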

Additional observations from a re-analysis of the deposited data

Results flagged for a closer look

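Of 126 combinations of gene and group, 17 held a library far from the rest of its group. The cutoff passes about 1 in 20 by chance when values are normally distributed. The genes were read in the same libraries, so the combinations are not independent and the 17 cannot be judged against that rate. In autoMACS-Input replicate 3 was high for Gas5 (185 CPM, others 60.5 to 72.2), Snhg3 (8.71, others 2.12 to 3.06), Snhg8 (47, others 20.2 to 23.9) and Snhg12 (36, others 16.6 to 17.9). In autoMACS-TRAP replicate 4 was high for Gas5 (48.1 CPM, others 16.4 to 19.6) and Snhg12 (12.3, others 7.64 to 7.75).

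Elsewhere in the Sort Comparison, Gas5 was high in Cell-TRAP replicate 2 (22.9 CPM, others 15.0 to 15.7). Snhg3 was low in Cell-Input replicate 4 (2.43 CPM, others 3.22 to 3.33) and high in Tissue-TRAP replicate 2 (5.55, others 1.44 to 2.12). Snhg6 was high in Cell-Input replicate 2 (6.47 CPM, others 4.16 to 4.46).

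In the Inhibitor Comparison, Tissue-TRAP replicate 2 was high for Snhg1 (5.84 CPM, others 3.51 to 3.84) and Snhg12 (14.5, others 9.99 to 10.6). Snhg3 was high in Tissue-Input replicate 4 (4.84 CPM, others 3.43 to 3.59) and low in Tissue-TRAP replicate 1 (1.87, others 3.80 to 4.06). Snhg5 was high in Cell-Input (+) Inhibitors replicate 1 (10.9 CPM, others 9.99 to 10.1), Snhg6 in Dounce-TRAP replicate 3 (11.7, others 4.63 to 5.30) and Snhg12 in Dounce-Input replicate 1 (15.9, others 8.54 to 9.45).

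The suspension-to-tissue change differed between TRAP and Input in the tested interaction for Gas5 (−1.75), Snhg1 (−1.10), Snhg3 (−2.0) and Snhg6 (−1.52), on the log2 scale. The Snhg1 call was lost with DESeq2, limma, size factors, the compared groups alone (−0.65, adjusted p = 0.196), the earlier table (−0.60, adjusted p = 0.225) and 4 libraries left out singly.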

How the results depend on the processing

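Across 25 counts of called members, 162 of 177 values under alternatives that kept every library were within 1.5 times the reported count. The stricter filter left 3 of the 7 genes testable in TRAP and in fits of both fractions of the Inhibitor Comparison. It gave 1 in Dounce against Tissue and against Cell (−) in TRAP, 3 in TRAP against Input of Dounce, 2 in each of Cell (−) and Cell (+), and 1 in the suspension-to-tissue interaction, where fewer genes tested lowers the count. In TRAP against Input of Sort Comparison Tissue, size factors, the stricter filter, DESeq2 and limma each called 2, and in Inhibitor Comparison Tissue the earlier table called 3. Differences among sorts in Input numbered 1 with limma, limma with a random block for mouse (chosen after seeing the data) or the compared groups alone, and Dounce against Tissue in TRAP gave 1 with limma. The cause was not tested.

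With single libraries left out, counts ran from 0 to 1 (Cell (+) against Tissue, Input), 1 to 2 (Dounce against Cell (−), Input), 1 to 4 and 0 to 1 (among sorts, Input and TRAP), 1 to 3 (Dounce against Tissue, TRAP), 0 to 1 and 1 to 2 (TRAP against Input of Tissue, Sort and Inhibitor) and 3 to 6 (TRAP against Input of Dounce). Of 1189 values of single genes, 1142 kept their side of the threshold, 27 lost the call, 20 gained one and 0 changed sign with a call. Of 1960 with a library left out these were 1910, 29, 21 and 0. The replicate block changed no other call than those given for Snhg1, Snhg5 and Snhg12, and its counts were 5 (Cell (−)), 4 (Cell (+)) and 5 (Dounce) for TRAP against Input.

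DESeq2 size factors moved the median of all genes by over 0.1 in 7 of 23 comparisons, by −0.41 to 0.15. Low counts limit Snhg1, Snhg3, Snhg5 and Snhg6, which fell below 10 counts in at least 1 library, with as few as 1 count of Snhg5 in a Dounce-TRAP library. Each group held 3 to 5 mice, and the part of cell composition was not tested.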

Other observations

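Deviations from the group mean were compared over genes with a mean of at least 10 CPM. In autoMACS the TRAP library of mouse 73 (replicate 4) gave r of 0.52 with the Input library of mouse 72 (replicate 3). With the Input library of its own mouse it gave −0.16. The TRAP library of mouse 72 gave −0.15 with its own Input and 0.20 with the Input of mouse 73. Pairs of mice 66 and 67 gave 0.49 and 0.37. Labels were used as deposited.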
